A study of Mus musculus with 6 samples.

Results

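The genes described here are 7 germline genes, Dazl, Ddx4, Sycp1, Sycp3, Mael, Tdrd1 and Hormad1, among 21774 protein-coding genes of the RefSeq annotation of the mouse genome (GRCm38.p6, the assembly also called mm10). They were chosen by name as genes known to be kept silent by DNA methylation outside the germline. The choice was made with earlier results of these data known. DNA methylation and transcription were not measured in the data used here, so this property of the genes could not be checked. The data are a list of 41014 regions of open chromatin (peaks) from ATAC-seq, in which a transposase inserts sequencing adapters where DNA is accessible. The list came from 2 libraries of untreated V6.5 cells, a mouse embryonic stem cell (mESC) line. The sources differ on the culture. The labels give irradiated fibroblast feeder cells, serum and leukaemia inhibiting factor, and the study's methods name no feeders and add the inhibitors CHIR99021 (of GSK3) and PD0325901 (of MEK) to serum and leukaemia inhibiting factor. Inhibition of both kinases is known to lower DNA methylation in mESCs, so which medium these cells had bears on genes silenced in this way, and it could not be settled here. The labels of all samples, the untreated ones included, also carry a text on doxycycline given to degron cells, which cannot be told to apply or not to the untreated libraries. Both libraries were combined into 1 list, with 1 score for each peak and no value for either replicate, so no spread between replicates can be given and no test was made. The 4 other libraries of the series came from cells carrying a ZBTB21 degron, 2 at 0 h and 2 at 6 h of auxin treatment, and were not analysed here.

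Germ cells use a set of proteins that other cells do not make. In somatic tissues the promoters of many such genes, which are often rich in CpG dinucleotides, carry DNA methylation and stay silent. In mESCs, many are also held silent by the Polycomb complex PRC1.6, whose MGA and MAX subunits bind the E-box CACGTG and whose E2F6 and DP1 subunits bind E2F sites. Dazl encodes an RNA-binding protein that governs translation in germ cells, and Ddx4 encodes the germ cell RNA helicase also known as VASA. Sycp1 encodes the transverse filament and Sycp3 a lateral element protein of the synaptonemal complex, which joins homologous chromosomes in meiosis, and Hormad1 encodes a protein of the unsynapsed chromosome axis. Mael and Tdrd1 encode proteins of the piRNA pathway, which silences transposons in the germline.

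The promoters of 3 of the 7 genes are shown in full, as examples of the sequence features described below. The Sycp3 promoter is the one that carried a listed peak, that of Mael had the same kinds of motif with no peak, and that of Dazl had neither motif. Each runs from 250 bases before the transcription start site (TSS) through the first 50 transcribed bases, taken from GRCm38.p6 and identical to the promoter sequence in RefSeq, 5′ to 3′ in the direction of transcription. Capitals mark the E-box (CACGTG, its own reverse complement) and the core of the E2F site (GCGGGA, or TCCCGC where it lies on the other strand).
Sycp3 promoter, chr10:88459337-88459636, plus strand: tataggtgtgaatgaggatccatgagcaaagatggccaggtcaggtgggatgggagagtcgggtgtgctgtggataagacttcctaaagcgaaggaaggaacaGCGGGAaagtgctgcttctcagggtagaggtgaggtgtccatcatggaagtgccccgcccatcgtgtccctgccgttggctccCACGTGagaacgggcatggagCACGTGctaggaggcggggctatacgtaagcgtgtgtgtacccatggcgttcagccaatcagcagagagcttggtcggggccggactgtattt
Mael promoter, chr1:166238695-166238994, minus strand: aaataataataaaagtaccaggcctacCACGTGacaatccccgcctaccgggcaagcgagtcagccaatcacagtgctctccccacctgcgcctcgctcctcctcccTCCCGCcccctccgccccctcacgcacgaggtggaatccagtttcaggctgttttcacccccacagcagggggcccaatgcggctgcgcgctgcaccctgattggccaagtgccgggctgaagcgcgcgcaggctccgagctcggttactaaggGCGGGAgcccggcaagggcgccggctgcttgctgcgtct
Dazl promoter, chr17:50293571-50293870, minus strand: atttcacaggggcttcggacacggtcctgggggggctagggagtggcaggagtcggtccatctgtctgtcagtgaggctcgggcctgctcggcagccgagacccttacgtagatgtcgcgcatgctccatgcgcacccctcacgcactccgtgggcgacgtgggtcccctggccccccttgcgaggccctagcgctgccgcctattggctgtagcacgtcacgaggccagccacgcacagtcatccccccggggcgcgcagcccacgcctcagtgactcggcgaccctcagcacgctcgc
An E-box stood in 6 of the 7 promoters when each was read from the start of a curated transcript. In the Sycp3 promoter the first bases of the E-boxes lay at -64 and -43 from the TSS, and in the Mael promoter at -223. The remaining E-boxes are shown with 17 bases on each side, with the E-box in capitals and the position of its first base counted from the TSS.
Ddx4 at -29, chr13:112652317-112652356, minus strand: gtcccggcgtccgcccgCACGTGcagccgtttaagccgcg
Sycp1 at -94, chr3:102936172-102936211, minus strand: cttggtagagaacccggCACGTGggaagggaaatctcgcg
Tdrd1 at -11, chr19:56826181-56826220, plus strand: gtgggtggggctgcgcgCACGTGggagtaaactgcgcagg
Hormad1 at -57, chr3:95559603-95559642, plus strand: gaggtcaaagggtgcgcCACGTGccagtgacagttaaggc
Hormad1 at -20, chr3:95559640-95559679, plus strand: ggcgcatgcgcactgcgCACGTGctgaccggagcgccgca
By this count an E-box was present in 8.16% of the promoters of all protein-coding genes with a curated transcript, in windows of the same length. An E2F core was present in 5 of the 7 promoters (Ddx4, Sycp1, Sycp3, Mael and Hormad1) and in 26.7% of those promoters. It began at -136 in Ddx4, 3 in Sycp1, -147 in Sycp3, -95 in Hormad1, and at both -143 and 12 in Mael. Neither word overlaps the other in these promoters. When each promoter was instead placed at the TSS used by most RefSeq transcripts of the gene, the Ddx4 window moved upstream and lost both words, which left the E-box in 5 of 7 genes (7.62% of all promoters) and the E2F core in 4 of 7 (23.3% of all promoters). Both words together then stood in Sycp1, Sycp3, Mael and Hormad1, and in 2.54% of all promoters. A match of 6 letters is a description of the sequence and not a measured binding site.

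A peak was listed within 1 kb of a TSS in 1 of the 7 genes, Sycp3. The same held for 29.9% of all protein-coding genes, which is the background for this count. Within 5 kb of a TSS the count was again 1 of 7, beside 41% of all protein-coding genes. In the gene span, from the first to the last transcribed base, peaks were listed in 3 of 7 genes, Sycp1, Sycp3 and Tdrd1, beside 49.6% of all protein-coding genes. The 7 spans together covered 309 kb and held 4 peaks, or 1.29 peaks per 100 kb, and the spans of all protein-coding genes held 2.29 per 100 kb. With 7 genes, 1 gene more or fewer moves these shares widely. Absence from the list says that no peak reached the authors' threshold, and not that the DNA was closed. The list holds no read counts, so the depth behind it is unknown. Of 12 genes typical of mESCs, 5 had a peak within 1 kb of a TSS and 9 within 5 kb, beside the same 29.9% and 41%. The pluripotency factor genes Pou5f1 and Nanog were among the 5. Sox2, Esrrb, Klf2, Klf4, Tfcp2l1, Tdgf1 and Fgf4 had no peak within 1 kb.

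**Figure D1:**
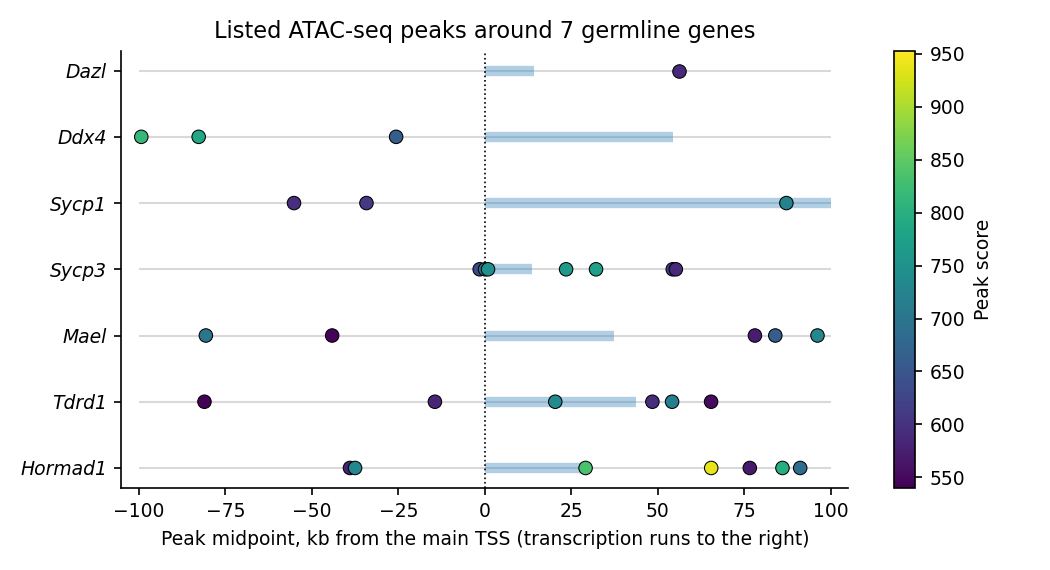
Position of each listed ATAC-seq peak (circle, midpoint in kb) from the TSS used by most transcripts of each gene, coloured by score, with the gene span as a blue bar that is cut at 100 kb for Sycp1. Sycp3 has peaks at its TSS, and the other 6 genes have an empty interval on both sides of theirs.

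Sycp3, the lateral element gene, occupies chr10:88459587-88473236 on the plus strand and has 1 RefSeq transcript, NM_011517.2, with 9 exons. The first of its 3 peaks within 5 kb, chr10:88459369-88459971, covered the TSS, from 218 bp upstream to 384 bp downstream. It was 603 bp wide, more than 60.8% of all peaks, and its score of 706 exceeded that of 53.5% of all peaks. The score lies between 540 and 953 across the list, with a median of 696. What the score stands for is not stated for ATAC-seq. Its lowest value equals the scaled score, 540, that irreproducible discovery rate (IDR) software writes at the threshold of 0.05 the study used for its ChIP-seq. If IDR was used here too, the list keeps peaks that both replicates rank alike and a higher score means a more reproducible peak, so that a peak could be missing for poor reproducibility as well as for weak signal. The peak held both E-boxes and the E2F core of the Sycp3 promoter. A second peak, chr10:88460255-88460795, began 668 bp downstream of the TSS in intron 1, was 541 bp wide and had a score of 745, above 67.4% of all peaks. The last, chr10:88457949-88458287, ended 1300 bp upstream, was 339 bp wide and had a score of 631, above 27.5% of all peaks. More than 1 peak within 1 kb of a TSS was listed for 2.80% of protein-coding genes, and 3 or more within 5 kb for 2.76%. The next TSS of another gene, that of Gnptab for the upstream peak and of Chpt1 for the other two, lay 43.2 to 44.0 kb away. The 3 peaks are therefore near no other annotated start, although the 3′ end of Chpt1, a gene on the opposite strand, overlaps the Sycp3 locus.

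**Figure D2:**
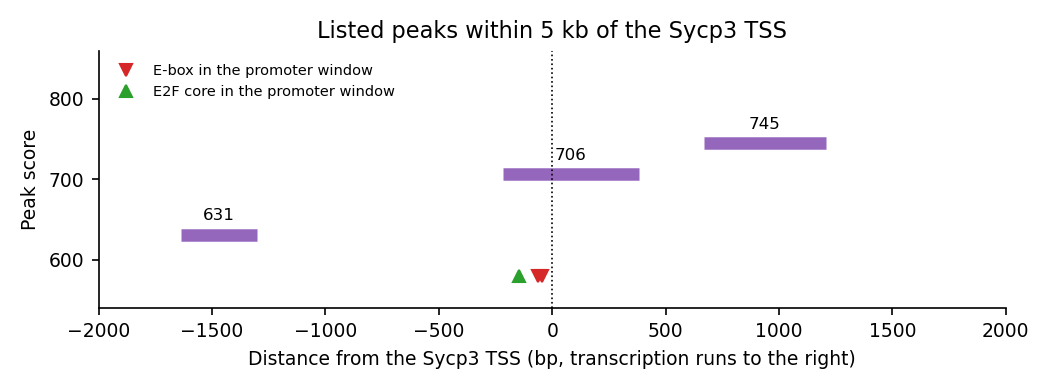
Listed peaks within 5 kb of the Sycp3 TSS, drawn as bars from edge to edge (bp from the TSS) at the height of their score, which is printed above each. Triangles mark the E-boxes and the E2F core of the promoter window, at no particular height; all 3 lie inside the peak with score 706.

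Sycp1, the transverse filament gene of the same complex, spans chr3:102818499-102936100 on the minus strand and is the longest of the 7 at 118 kb. No peak was listed at its TSS. The nearest one lay 34.0 kb upstream, had a score of 610 and was 5.80 kb from the TSS of Nr1h5, a nuclear receptor gene. Its single peak inside the gene, chr3:102848766-102849106, was in intron 28 of 32, 76.7 kb from the nearest Sycp1 TSS, was 341 bp wide and had a score of 725. That region contains no CpG dinucleotide in the 341 bp. The partners Sycp1 and Sycp3 therefore differed in the list, with 0 and 2 peaks within 1 kb of a TSS, and no error can be set on this difference.

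Hormad1, the axis gene, spans chr3:95559677-95587863 on the plus strand and held no peak in its 28.2 kb. The closest peak to its TSS was 28.8 kb downstream, beyond the end of the gene, at chr3:95588489-95589130. It covered the TSS of the neighbouring gene Golph3l, and its score of 835 exceeded that of 92.9% of all peaks. The promoter of Hormad1 and that of its neighbour thus stood apart in the list, one without a peak and the other with a high-scoring one.

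Mael, of the piRNA pathway, spans chr1:166201385-166238744 on the minus strand, and no peak was listed within it. The nearest peak was 43.8 kb upstream of the TSS, with a score of 544, above 1.05% of all peaks. The gene with the TSS closest to that peak was Ildr2, at 26.3 kb.

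Tdrd1, also of the piRNA pathway, spans chr19:56826171-56870012 on the plus strand. Among the 6 genes without a promoter peak it had the shortest distance to one, 14.25 kb upstream, at a peak with a score of 582 that lay 2.28 kb from the TSS of Ccdc186. A second peak, chr19:56846280-56846801, lay in intron 11 of 25, was 522 bp wide with a score of 736, and was 43.7% repeat sequence. It was 15.1 kb from the closest of the 9 annotated Tdrd1 start sites.

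Dazl spans chr17:50279393-50293620 on the minus strand and lay farthest from any peak of the 7 genes. The nearest was 55.4 kb away on the downstream side with a score of 590, and on the upstream side the first was 134 kb away. The peak-free interval around the Dazl TSS was 190 kb long, longer than that of 75.1% of protein-coding genes. Only 1 peak was listed within 100 kb of its TSS, and 14.6% of protein-coding genes had fewer.

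Ddx4 spans chr13:112598333-112652633 on the minus strand and held no peak in 54.3 kb. The nearest peak was 25.5 kb upstream, with a score of 661 and 4.67 kb from the TSS of Slc38a9, an amino acid transporter gene. The peak-free interval around the Ddx4 TSS was 148 kb long.

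The distances of the 6 genes without a promoter peak, 14.25 to 55.4 kb, were larger than those of 59.0% to 80.2% of protein-coding genes. The median distance was 28.8 kb for the 7 genes and 8.70 kb for all protein-coding genes, with a 75th percentile of 36.8 kb. Of the 7 genes, 5 were at least 20 kb from a peak, as were 34.8% of all. The genes were thus on the far side of the typical gene but not at the extreme of the distribution. The surroundings were not empty of peaks: within 100 kb of the TSS the 7 genes had between 1 (Dazl) and 7 (Sycp3 and Hormad1) peaks, with a median of 5, and the median over all protein-coding genes was also 5. Peak-free intervals around the TSS were 121 kb for both Sycp1 and Mael, 66.0 kb for Hormad1 and 34.4 kb for Tdrd1, beside a median of 51.5 kb for all protein-coding genes.

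**Figure D3:**
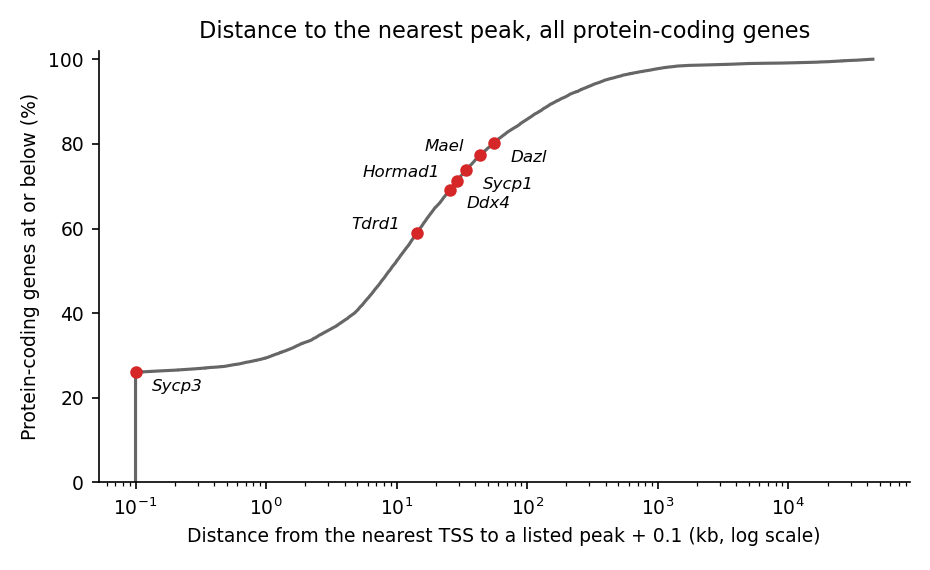
Cumulative share of protein-coding genes (%) against the distance from a TSS to the nearest listed peak (kb plus 0.1, log axis), with the 7 germline genes as red points. Sycp3 is at distance 0, and the other 6 lie between 14.25 and 55.4 kb, in the upper part of the curve.

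The promoters of the 7 genes were also compared by their CpG content. The ratio of observed to expected CpG dinucleotides is near 1 where CpGs have not been lost over evolution and low in most of the genome. It was 0.795 for Dazl, 0.874 for Sycp1, 0.666 for Sycp3, 0.780 for Mael, 0.713 for Hormad1, 0.532 for Tdrd1 and 0.232 for Ddx4 at the TSS of most transcripts. The median was 0.713 for the 7 promoters and 0.508 for all protein-coding promoters. The low Ddx4 value belongs to a predicted start upstream of the CpG-rich region, with 49% repeat sequence, and at the curated Ddx4 start the ratio was 0.978 and the GC content 72%. For Tdrd1 the curated start gave 0.733. Of all promoters with a ratio between 0.6 and 0.8, the class of Dazl, Sycp3, Mael and Hormad1, 38.7% had a peak within 1 kb of this TSS, and 1 of these 4 genes had one. At 0.8 and over, the class of Sycp1, the share was 34.7%, and below 0.4, the class of Ddx4 at its predicted start, it was 11.99%. Between 0.4 and 0.6, the class of Tdrd1 at the TSS of most transcripts, it was 34.7%. The curated starts would place Ddx4 at 0.8 and over and Tdrd1 between 0.6 and 0.8. Promoters with an E-box had a peak in 31.0% of cases and those without in 25.2%, and for the E2F core the shares were 34.8% and 22.9%.

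**Figure D4:**
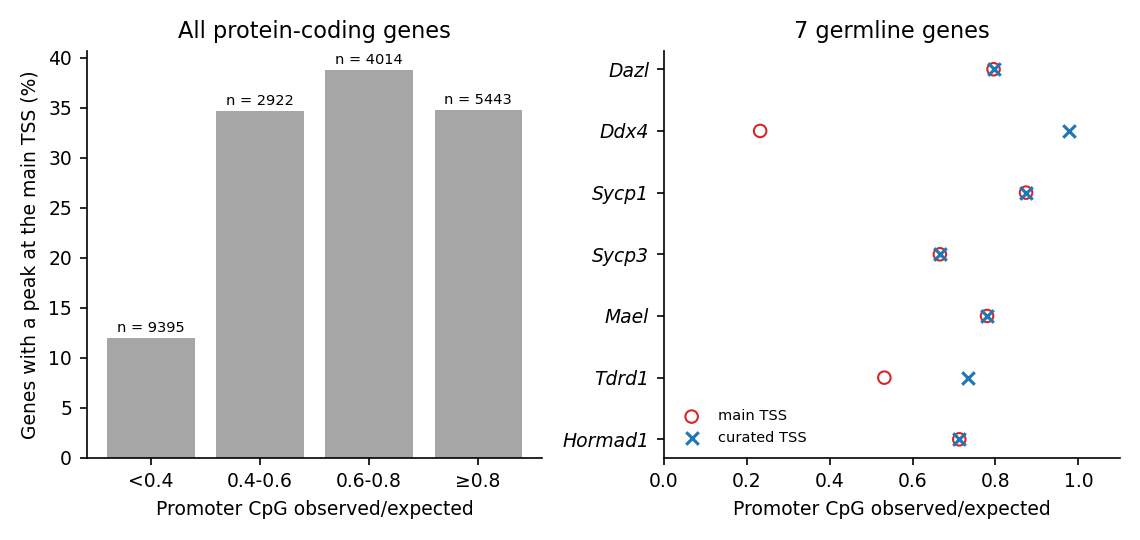
Left, share of all protein-coding genes with a listed peak within 1 kb of the main TSS (%), by class of the observed to expected CpG ratio of the promoter, with the number of promoters above each bar. Right, the ratio of each of the 7 genes at the main TSS (circles) and at the curated TSS (crosses), which differ for Ddx4 and Tdrd1.

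Of 71 further genes with roles in germ cells, 29 (40.8%) had a peak within 1 kb of a TSS, beside 1 of the 7 genes and the background of 29.9%. This difference was not tested. With only peaks above the median score, the count was 14 of 71 (19.7%) and the background 19.4%, so the 2 shares were close at that setting. With curated transcripts alone, the count was 23 of 71 (32.4%) and the background 27.5%. Some of the 29 genes therefore had a peak only at predicted starts. With all peaks and transcripts, 35 of the 71 (49.3%) had one within 5 kb, beside 41% of all protein-coding genes. In the gene span 37 of the 71 had one, beside a share of 49.6%. At 5 of the 29 the highest-scoring peak also lay within 1 kb of the TSS of another gene, so that the peak cannot be assigned to one of them. An E-box stood in 22 of the 71 promoters (31.0%) and an E2F core in 25 (35.2%). Over all protein-coding promoters the shares were 7.62% and 23.3% at the TSS of most transcripts, and 8.16% and 26.7% at curated starts. A peak within 1 kb of any TSS was listed for 12 of the 22 genes with an E-box and for 17 of the 49 without one. The shares by E-box given above for all promoters count peaks at the TSS of most transcripts alone, so they are not a like measure. The split by E-box was not tested. The median ratio of observed to expected CpG was 0.595 for the 71 promoters. Over all protein-coding promoters it was 0.508 at the TSS of most transcripts and 0.599 at curated starts.

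By role, 5 of 11 genes of the synaptonemal complex and chromosome axis had a promoter peak. They were Syce3 and Six6os1, which encode central element proteins (scores 645 and 652), the cohesin subunit genes Stag3 and Rec8 (677 and 793), and Hormad2, the paralogue of Hormad1 (555). The background for this count and the role counts below is 29.9% of all protein-coding genes. These counts use all transcripts, so they include the genes with a peak only at predicted starts. The Stag3 peak also covered the TSS of Gal3st4. Sycp2, which encodes the partner of SYCP3 in the lateral element, had none, and its nearest peak was 67.7 kb away. Of 16 genes of meiotic recombination, 6 had a peak: Spo11, which encodes the enzyme that makes meiotic double-strand breaks (735), Meiob (773), Msh4 (843), Mei1 (604), Tex11 (690) and Tex15 (640).

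Of 18 further genes of the piRNA pathway, to which Mael and Tdrd1 belong, 8 had a promoter peak. Among the tudor domain genes related to Tdrd1, these were Tdrd5 (616), Tdrd9 (744), Tdrd12 (674), Tdrkh (888) and Rnf17 (896). The others were Piwil2, which encodes a PIWI protein (551), the helicase gene Mov10l1 (601) and Pld6, which encodes a nuclease of piRNA biogenesis (666). The Tdrkh, Mov10l1 and Piwil2 peaks lay within 1 kb of another gene's TSS as well.

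Among 18 germ cell RNA regulators and other germ cell proteins, the list that fits Dazl and Ddx4, 9 had a promoter peak. Boll, a relative of Dazl, had one with a score of 643, and the RNA helicase gene Ddx25 one with 806, which lay 555 bp from the TSS of Pus3. The remaining 7 were Dnd1 (847), Tex19.1 (878), Adad2 (831), Adad1 (783), Tex14 (765), Stra8 (718) and Rpl10l (660), the last an intronless copy of a ribosomal protein gene whose reads may also map to related copies. Of 8 germ cell transcription and chromatin factors, only the bromodomain gene Brdt had one (641).

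**Figure D5:**
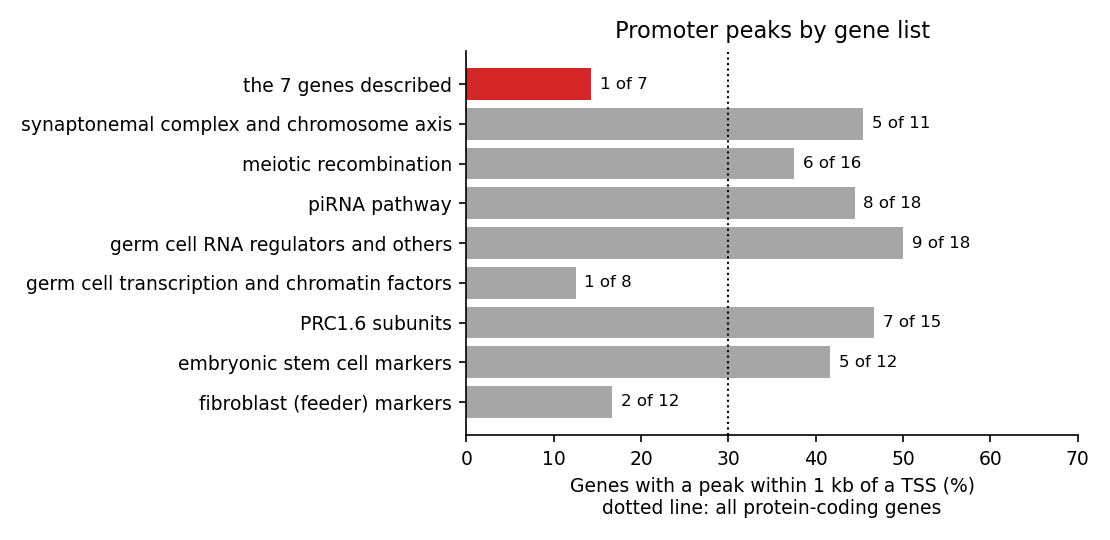
Share of genes with a listed peak within 1 kb of a TSS (%) in each list, with the counts beside the bars and all protein-coding genes as a dotted line at 29.9%. The 7 genes described stand at 1 of 7, and the other germline lists range from 1 of 8 to 9 of 18.

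Of 15 genes for subunits of PRC1.6, 7 (46.7%) had a promoter peak, beside the background of 29.9%. With only peaks above the median score, 1 of 15 (6.67%) had one, below the background of 19.4% at that setting. With all peaks, the 7 genes were Mga (692), L3mbtl2 (854), Tfdp1 (592), Ring1 (630), Rybp (605), Yaf2 (681) and Hdac1 (685). The Ring1 peak also covered the TSS of Mir219c, and the Mga peak lay 0.965 kb from the nearest Mga TSS. Only the L3mbtl2 score exceeded the median of 696. Within 5 kb the count was 10 of 15 (66.7%), beside 41% of all protein-coding genes. Max and E2f6 were not among the genes with a peak within 1 kb.

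Since the labels name fibroblast feeders, the list was checked for fibroblast genes. Of 12 fibroblast marker genes, 2 (Thy1 and Pdgfra) had a peak within 1 kb and 3 within 5 kb. For the 12 mESC genes the counts were 5 and 9, and the shares of all protein-coding genes were 29.9% and 41%. The collagen genes Col1a1, Col1a2, Col3a1 and Col6a1 had none within 1 kb, but Col6a1 had 1 within 5 kb and Col1a1 had 2 in its span. The part of feeder cells in the peaks at Sycp3, Sycp1 and Tdrd1 was not tested.

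The study concerns ZBTB21, a zinc finger protein studied there for its association with cohesin at promoters and in chromatin loops, and the 7 genes were compared with the positions of its 1827 ChIP-seq peaks in mESCs. None of the 7 had a ZBTB21 peak in the gene span or within 5 kb of a TSS (0 of 7, beside 8.18% of all protein-coding genes). With a window of 50 kb the count was again 0 of 7, beside 19.5% of all protein-coding genes. The nearest ZBTB21 peak lay 59.3 kb from the Sycp1 TSS, 103 kb from that of Tdrd1 and 125 kb from that of Hormad1. The distance was 629 kb for Mael, 927 kb for Ddx4, 1942 kb for Dazl and 2664 kb for Sycp3. None of the ATAC-seq peaks within 100 kb of the 7 start sites overlapped a ZBTB21 peak. Only Sycp1 had a ZBTB21 peak within 100 kb of its TSS, so for the other genes the distances above already settle this. No share over all listed peaks was taken, so this absence has no background.

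None of the genes lay in 1 of the 500 loops that the study classed as ZBTB21-responsive, which overlap 15.9% of protein-coding genes, or in 1 of the 500 less responsive loops, which overlap 6.24%. The nearest responsive loop was 255 kb from Tdrd1, and the others were between 1051 kb (Mael) and 11712 kb (Hormad1) away. The nearest less responsive loop was 1260 kb from Hormad1, and the farthest was 7236 kb from Mael. With 7 genes and these background shares, a count of 0 is not shown to differ from that of other genes.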

How the data were processed

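ATAC-seq was done on 2 libraries of untreated V6.5 mESCs. The authors deposited 1 list of peaks in mm10 for both, with a score for each peak (540 to 953). The steps of peak calling are stated for ChIP-seq (MACS2, then IDR at 0.05 over replicates) and not for this list, whose lowest score is the scaled IDR score at 0.05. The submitters' processing notes name cutadapt 2.6, Bowtie2 2.3.5.1 and MACS2 2.1.1, with no role or order. A strict threshold would leave out weak promoters. DNA methylation was not measured. Positions of ZBTB21 peaks and loops came from the study's supplementary tables.

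Peaks were compared with all RefSeq transcripts of GRCm38.p6 in Python 3.11.15 and numpy 2.4.6 by an overlap of at least 1 bp with the TSS ± 1 kb, ± 5 kb or the gene span. Shares of all protein-coding genes served as background. Overlap and motif code was tested on simulated intervals and sequences, with 0 differences from direct counts. The members and lists were chosen with earlier results of these data known. Genes named were the 7 members, list genes with a peak within 1 kb, and the genes of the TSS nearest to peaks in or near members. Sycp2, Max, E2f6 and the mESC and collagen genes named without a peak within 1 kb were chosen after their values were seen.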

Additional observations from a re-analysis of the deposited data

How the results depend on the processing

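No paired analysis was possible because 1 list pools both replicates, and for the same reason no replicate could be left out. The count of 1 of 7 genes with a peak within 1 kb was the same under all 7 alternatives (windows of 500 bp and 2.5 kb, peak midpoints, peaks above the median score, peaks within 500 bp merged, curated transcripts, and GENCODE start sites, the last chosen after seeing the data), while the share of all protein-coding genes ranged from 19.4% to 34.9%. Most of these settings could not have changed that count. A Sycp3 peak scoring above the median covers the TSS, and the other genes lie at least 14.25 kb from any peak. Of 58 values under alternatives, 53 stayed within 1.5 times the main count or, for CpG ratios, within the spread of the 7 promoters, and 5 did not. The 53 include these counts that could not move. With only peaks above the median score, the other germline genes with a promoter peak fell from 29 of 71 (40.8%) to 14 (19.7%) and the PRC1.6 subunits from 7 of 15 (46.7%) to 1 (6.67%), while the background went from 29.9% to 19.4%. The first share was then close to the background and the second below it. With spans widened by 5 kb, peaks in or near the 7 genes rose from 4 to 7. The Ddx4 CpG ratio of 0.232 became 0.677 over 500 bp on both sides of the TSS and 0.978 at the curated start, which was chosen after seeing the data. The count of 0 for ZBTB21 peaks held with a window of 50 kb. For loops, the alternatives (overlap with the anchors only, and a TSS inside the loop) are narrower than the main rule. Their counts of 0 could therefore not change, and they are also among the 53. The list has no read depth, so every absence is relative to the authors' threshold.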
